A study of Mus musculus with 2 samples.

Results

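The genes described here encode the oxidative phosphorylation machinery of the mitochondrion, and the measurement is where the coactivator EP300 was found on chromatin near them in newborn mouse lung. Members were taken by symbol alone: protein-coding genes on chromosomes 1 to 19 whose symbols start with Nduf, Sdha, Sdhb, Sdhc, Sdhd, Uqcr, Cox4 to Cox8 or Atp5, with Cox4i2 left out. The rule found 93 members among 20698 protein-coding genes. It used no measured value, but members were chosen with earlier results of these data known. Of these, 78 are subunits: 34 of complex I, 4 of complex II, 8 of complex III, 16 of complex IV and 16 of complex V. The symbols also take in 12 assembly factors and 3 associated proteins, Cox7a2l, Ndufa4l2 and Atp5s. Ndufa4 is counted with complex IV, to which its protein belongs despite its name. The X-linked subunit genes Ndufa1, Ndufb11 and Cox7b lie outside the rule, as do the subunits encoded by mitochondrial DNA.

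EP300 chromatin immunoprecipitation with sequencing was done on whole lung of B6NCrl mice at postnatal day 0, in 2 libraries that form the only group. There is no treatment, mutant or second tissue, so members are set beside all protein-coding genes. Both libraries carry 1 donor label and 1 biosample label, and differences between them may then be technical. Whole lung mixes many cell types, and the sex was not collected. The optimal set of reproducible peaks, made by the authors from both libraries with the irreproducible discovery rate (IDR), held 43988 peaks, 43296 of them on chromosomes 1 to 19, and is the set meant wherever no other is named. Each library's own list held 300000 peaks, so a library taken alone is represented by its 43988 strongest. Read counts were not in these lists, so depth is unknown. The tissue label was set beside marker genes, in lists chosen with earlier results of these data known. A promoter peak stood at 9 of 10 lung markers, beside 22.2% of all genes. Of 8 markers of liver, heart, skeletal muscle and neurons, 0 had one. The lung markers were the nearest genes of 111 peaks and the other markers of 11, of which Gad2 and Neurod1 had 4 each (Neurod1 had 2 in replicate 2 alone). Stretches nearer to a marker's start than to any other start, out to 100 kb, had medians of 115.8 kb for lung and 44.17 kb for other markers. Per Mb of such stretches, peaks beyond 1 kb numbered 90.1 and 25.7, beside 20.6 for all genes.

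The respiratory chain passes electrons from NADH and succinate to oxygen and pumps protons, and complex V, the ATP synthase, uses the proton gradient to make ATP. Complex I takes electrons from NADH, complex II from succinate, complex III passes them to cytochrome c and complex IV to oxygen. Most of the subunits are encoded in the nucleus, where NRF1, GABP (an ETS factor), YY1 and the ERR receptors, with coactivators of the PGC-1 family, are known to act on their promoters. EP300 is a histone acetyltransferase that transcription factors recruit to enhancers and active promoters.

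The sequences below carry the strongest findings: the promoter peaks of the 4 members that ranked among the strongest 10% of optimal peaks, and the strongest peak assigned to a member farther than 1 kb from a start. Each is 100 bases around the summit in GRCm38, read 5′ to 3′ on the gene's strand, and capitals mark matches to the searched motifs given further on. Capitals mark GGGCGG (SP) in Atp5f1, 3 matches to CCAAT (NF-Y) on either strand in Atp5b, overlapping matches to GCGCATGCG (NRF1) on both strands in Ndufa11 and ACANNNTGT (glucocorticoid receptor) at Ndufc2. The window of Ndufa4 held no match. The promoter peaks of Atp5f1, Ndufa4 and Ndufa11 also lay within 1 kb of another gene's start, and that of Atp5b did not.
Atp5f1, chr3:105959288-105959387, minus strand: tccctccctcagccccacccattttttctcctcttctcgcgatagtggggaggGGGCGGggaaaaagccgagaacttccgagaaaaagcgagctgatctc
Atp5b, chr10:128083109-128083208, plus strand: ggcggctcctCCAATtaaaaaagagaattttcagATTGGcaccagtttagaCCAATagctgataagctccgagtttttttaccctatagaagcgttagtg
Ndufa4, chr6:11907560-11907659, minus strand: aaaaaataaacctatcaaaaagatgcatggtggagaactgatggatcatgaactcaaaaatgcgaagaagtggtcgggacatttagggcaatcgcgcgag
Ndufa11, chr17:56717702-56717801, plus strand: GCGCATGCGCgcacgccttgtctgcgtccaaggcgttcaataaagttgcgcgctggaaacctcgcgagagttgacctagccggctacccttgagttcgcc
Ndufc2, upstream peak, chr7:97392187-97392286, plus strand: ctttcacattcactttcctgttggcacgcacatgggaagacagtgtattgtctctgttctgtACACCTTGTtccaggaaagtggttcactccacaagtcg

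A promoter peak was counted where a summit of the optimal set lay within 1 kb of a start site (TSS) of any protein-coding transcript of the gene. Such a peak was present at 32 of 93 members, which is 34.4% (95% Wilson interval 25.55 to 44.51%, for counting error only), beside 22.2% of all protein-coding genes. Taken alone, replicate 1 had promoter peaks at 37 members (39.8%), beside 24.8% of all genes. Replicate 2 alone had them at 39 members (41.9%), beside 23.3% of all genes. The members' share averaged 40.9% ± 1.49 between the libraries, and that of all genes 24.1% ± 1.06 (SD, n = 2 libraries each), so the gap was wider than the spread between libraries. Members share the rule that chose them and are not replicates, so no test was made over them.

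**Figure D1:**
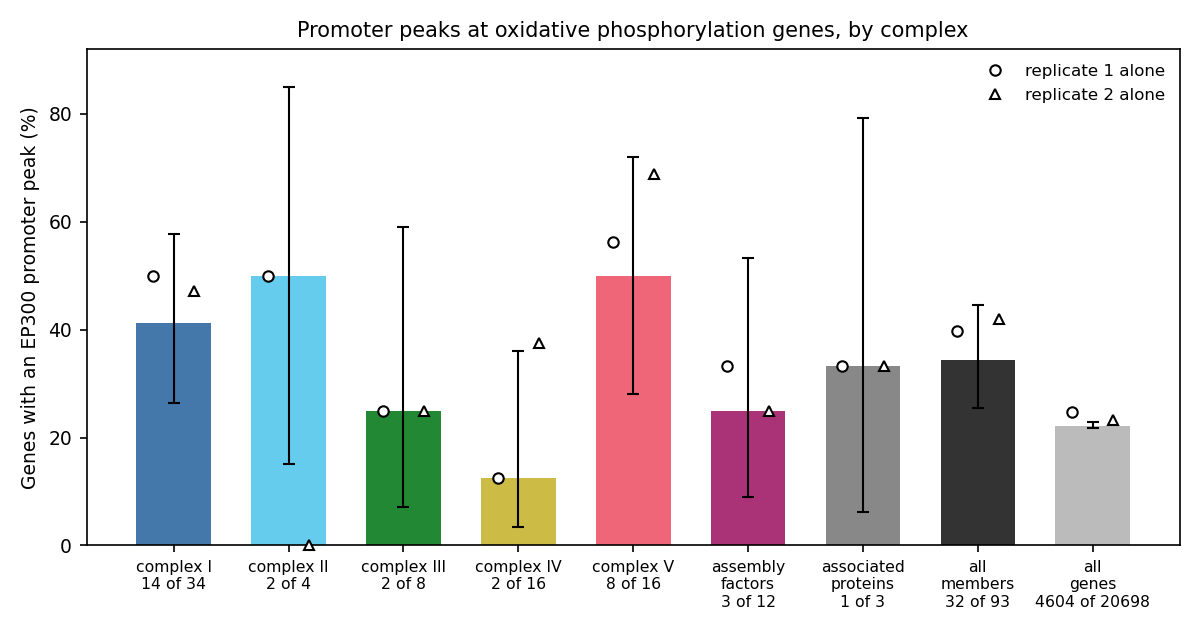
Bars give the percent of genes with a promoter peak in the optimal set, with 95% Wilson intervals, for each complex, the assembly factors, the associated proteins, all members and all genes. Circles and triangles give replicate 1 and replicate 2 alone. Complex V stands at 50% and complex IV at 12.5%, and all members at 34.4% beside 22.2% of all genes.

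The share was unequal among the complexes, as the bar chart by complex shows. Promoter peaks lay at 8 of 16 complex V genes (50%), 14 of 34 complex I genes (41.2%), 2 of 4 complex II genes, 2 of 8 complex III genes and 2 of 16 complex IV genes (12.5%). The Wilson intervals of complex V (28.0 to 72.0%) and complex IV (3.50 to 36.02%) overlapped. Replicate 1 alone gave 9 of 16 for complex V and 2 of 16 for complex IV, and replicate 2 alone gave 11 of 16 and 6 of 16. Both libraries thus placed complex V above complex IV, while the level of complex IV differed between them.

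Complex V had the members with the strongest signal. Signal here is the authors' value for a peak, which serves to rank peaks within 1 list. Values of the libraries are those of the strongest listed peak within 1 kb of the same gene's start. Atp5f1, a subunit of the peripheral stalk, had a signal of 375 in the optimal set (rank 93), 219 in replicate 1 (rank 58) and 153 in replicate 2 (rank 151). Atp5b, the catalytic beta subunit of the head, had 298 (rank 253), with 145 in replicate 1 (rank 434) and 152 in replicate 2 (rank 157). Both genes ranked at 434 or better in the optimal set and in each library. Atp5l, a membrane subunit, had 107 (rank 5657), with 63.7 in replicate 1 and 42.7 in replicate 2. Atp5a1, the catalytic alpha subunit, Atp5d of the central stalk and Atp5o of the peripheral stalk also had promoter peaks, with signals between 51.2 and 56.0. Taking each gene's strongest promoter peak, the lowest of complex V thus stood near the median over all genes with one, which was 52.0.

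The ring of subunit c is encoded by 3 genes whose mature proteins are identical, and these differed. Atp5g3 had a promoter signal of 93.4 (rank 7527), with 61.3 in replicate 1 and 37.8 in replicate 2. Atp5g2 had 60.5 (rank 15907), with 31.9 in replicate 1 and 29.6 in replicate 2. Atp5g1 had no promoter peak in the optimal set, and the libraries disagreed on it. Its strongest listed peak within 1 kb had 13.9 in replicate 1 (rank 57393), outside the strongest 43988, and 28.3 in replicate 2 (rank 14597), inside them. Among the other members of complex V, Atp5c1, Atp5e, Atp5h, Atp5j, Atp5j2, Atp5k and Atp5mpl had no promoter peak.

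In complex I the share of genes with a promoter peak was higher among the core subunits, those conserved from bacteria that carry the flavin and iron-sulphur clusters. Of 7 nuclear core genes in the list 6 had one, among them Ndufs1, which holds iron-sulphur clusters, and Ndufv1, which binds NADH. Ndufs3 did not, and its strongest listed peak within 1 kb had a signal of 17.0 in replicate 1 and 6.68 in replicate 2. Among 27 accessory genes 8 had a promoter peak (29.6%). The Wilson intervals of core (48.69 to 97.43%) and accessory genes (15.85 to 48.48%) did not overlap, but with 7 core genes and a division of the list chosen with results known this is a description.

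The strongest promoter peak of complex I was at Ndufa11, an accessory subunit of the membrane arm, with a signal of 154 (rank 2335), 93.0 in replicate 1 and 59.9 in replicate 2. Ndufs1, the largest iron-sulphur subunit of the electron input arm, had 109.7 (rank 5395), with 57.8 in replicate 1 and 43.2 in replicate 2. Ndufa7, an accessory subunit, had 106 (rank 5853), with 60.6 in replicate 1 and 46.4 in replicate 2. The lists were not put on 1 scale, and over 37183 peaks matched in both libraries the median log2 ratio of replicate 1 to replicate 2 was 0.40 (SD 0.62). By rank, Ndufa7 stood at 5841 in replicate 1 and 5810 in replicate 2, nearly the same place. Further promoter peaks of complex I included those of Ndufa9, with 76.9, and Ndufb4, with 29.6, the lowest of the complex when each gene's strongest promoter peak is taken.

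Complex IV was marked at few promoters. Ndufa4, a subunit once placed in complex I, had 161 (rank 2035), with 84.5 in replicate 1 and 74.2 in replicate 2. Cox5a, a subunit on the matrix side, had 32.2 (rank 35343), with 25.4 in replicate 1 and 10.9 in replicate 2. The Cox5a value was the only one of an ubiquitous subunit, and no peak within 100 bp of its summit was listed in replicate 2. Without Ndufa4, then, 1 of 9 ubiquitous subunits had a promoter peak.

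The ubiquitous subunits that have tissue isoforms had no promoter peak in the optimal set. Cox4i1 had a strongest listed peak within 1 kb of 13.8 in replicate 1 and 15.1 in replicate 2. Cox7a2 had 16.9 in replicate 1 and 14.8 in replicate 2. Cox8a had 11.9 in replicate 1 (rank 70670) and 21.3 in replicate 2 (rank 22675). These 3 genes, with Cox6b1 and Cox6c, held a promoter peak among the 43988 strongest of replicate 2 alone, and none of them did so in replicate 1. Cox6b1 had 12.4 in replicate 1 and 13.7 in replicate 2. Cox6a1 had no listed peak within 1 kb in replicate 1 and 6.54 in replicate 2.

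None of the 6 isoform genes of heart and muscle (Cox6a2, Cox7a1, Cox8b) or testis (Cox6b2, Cox7b2, Cox8c) had a promoter peak in the optimal set or was the nearest gene of any of its peaks. The Wilson interval of 0 of 6 reaches 39.03%. Cox4i2, which the rule left out, is not among the complex IV genes counted here. Cox6a2, Cox7b2 and Cox8c had no listed peak within 1 kb in the pooled list or in either library. Cox7a1 had 16.3 in replicate 1 and 8.98 in replicate 2, and Cox6b2 had 8.70 in replicate 1 and 7.26 in replicate 2. Cox8b had 6.52 in replicate 1 and no listed peak within 1 kb in replicate 2. Taken alone, replicate 1 and replicate 2 each assigned 1 peak to Cox8b.

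Complexes II and III had 2 promoter peaks each, of unlike support. In complex III, Uqcrq, a small subunit, had 89.3 (rank 8212), with 63.3 in replicate 1 and 25.8 in replicate 2. Uqcrh, the hinge protein that contacts cytochrome c1, had 73.5 (rank 11651), with 30.2 in replicate 1 and 44.6 in replicate 2. Both complex III peaks were in the conservative set and in each library alone. In complex II, Sdhb, the iron-sulphur subunit, had 35.1 (rank 32524), with 26.4 in replicate 1 and 10.4 in replicate 2. Sdhc, a membrane anchor, had 33.9 (rank 33676), with 25.5 in replicate 1 and 8.94 in replicate 2. Neither complex II peak was in the conservative set or among the strongest 43988 of replicate 2, so complex II had 2 of 4 in replicate 1 alone and 0 of 4 in replicate 2 alone. Sdha, the flavoprotein, and Uqcrc1, a core protein of complex III, had no listed peak within 1 kb in the pooled list or in either library.

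Of 12 assembly factors 3 had a promoter peak, all of modest signal. Sdhaf3, a factor for the iron-sulphur subunit of complex II, had 46.3, with 31.4 in replicate 1 and 14.7 in replicate 2. Ndufaf3, a complex I assembly factor, had 36.7, with 16.3 in replicate 1 and 18.4 in replicate 2. Sdhaf2, which helps attach flavin to Sdha, had 28.7, with 17.7 in replicate 1 and 10.4 in replicate 2, the lowest optimal signal of the 32. Cox7a2l, a factor of respiratory supercomplexes, had 102 (rank 6268), with 47.9 in replicate 1 and 56.8 in replicate 2. Ndufa4l2, a hypoxia-induced relative of Ndufa4, had no promoter peak, with 10.5 in replicate 1 and 7.36 in replicate 2 as its strongest listed values within 1 kb.

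**Figure D2:**
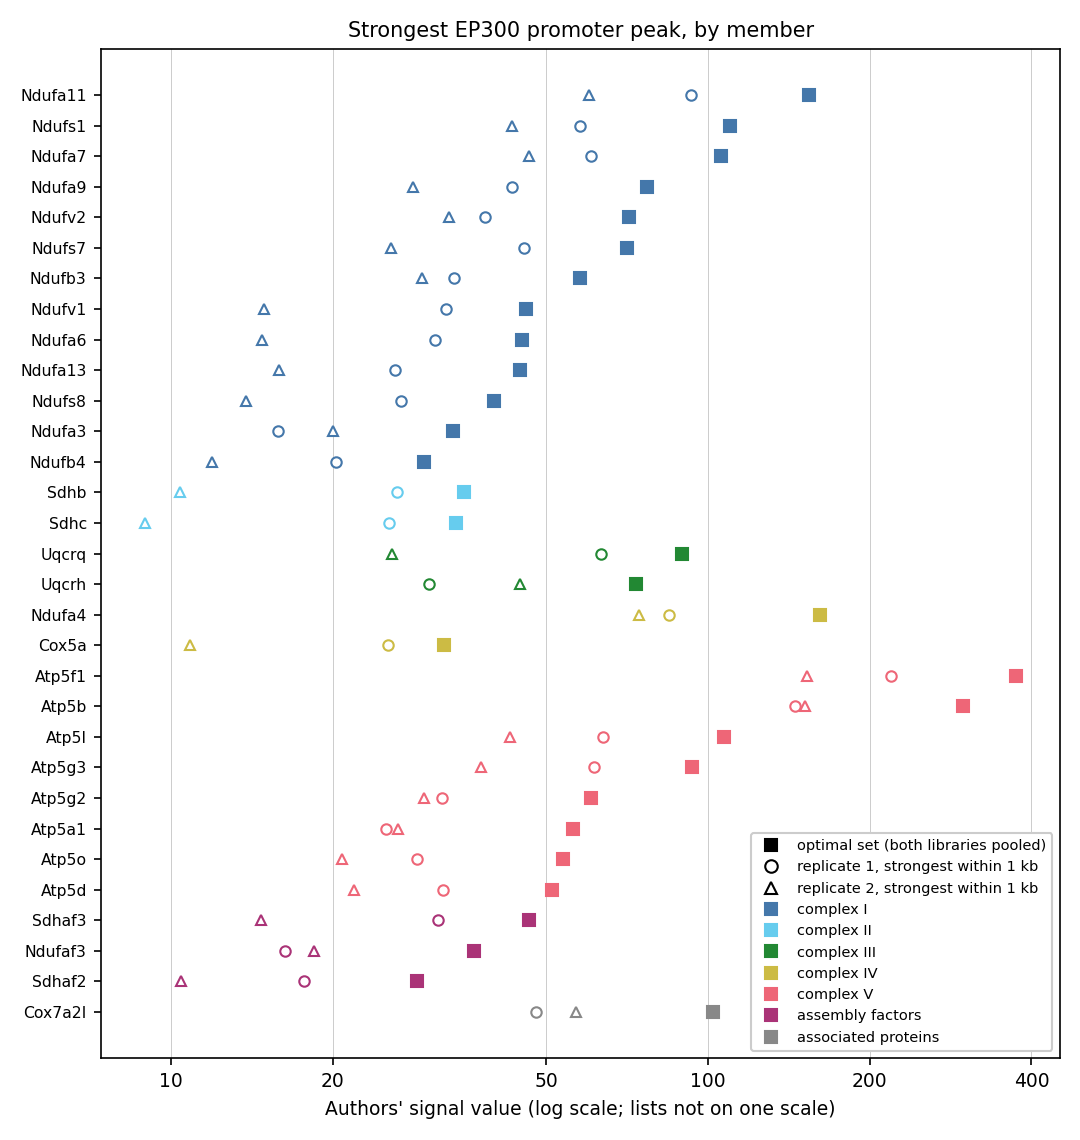
Each row is a member with a promoter peak, 31 of the 32, ordered by complex and signal. Squares give the authors' signal in the optimal set and open circles and triangles the strongest listed peak within 1 kb in replicate 1 and replicate 2, on a log axis. Atp5f1 (375) and Atp5b (298) stand apart at the right, and Sdhaf2 (28.7) has the lowest square.

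Over the 32 members the strongest promoter peak had a median signal of 59.1 (range 28.7 to 375), beside 52.0 over all 4604 genes with a promoter peak. Ranked by signal, 4 members (12.5%) had a peak among the strongest 10% of optimal peaks, beside 8.45% of all genes with one, and 20 (62.5%) among the strongest 50%, beside 54.8%. A matching summit within 100 bp was listed in both libraries for 25 of the 32. Their log2 ratio of replicate 1 to replicate 2 had a median of 0.52 (SD 0.53), beside 0.40 (SD 0.62) over all optimal peaks matched in both. The 2 medians differed by less than either SD, which is the spread over single peaks and not the error of a median.

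**Figure D3:**
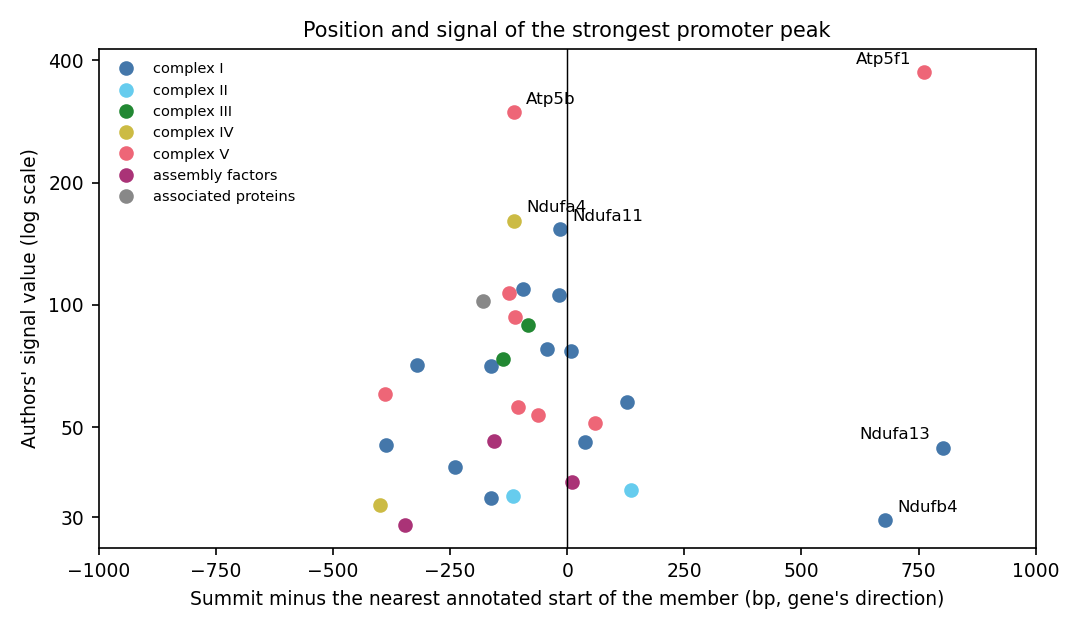
Each point is the strongest promoter peak of 1 member, placed by the distance of its summit from the member's nearest start (bp along the gene's direction, negative upstream) and by the authors' signal on a log axis. Most summits lie just upstream, 23 of 32, and Atp5f1, Ndufa13 and Ndufb4 lie more than 500 bp downstream.

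Most of these summits lay close to the start of transcription and upstream of it, as the plot of summit position shows. The median distance was 125.5 bp, beside 180 bp over all genes with a promoter peak. Upstream lay 23 summits and downstream 9, and 24 were within 250 bp. The farthest inside the limit was Ndufa13, at 801 bp, and the nearest members outside it were Ndufa4l2, with a peak at 1756 bp, and Sdhaf4, at 2172 bp. The distance depends on the annotation, in both directions. The nearest start of a protein-coding transcript of Atp5f1 in GENCODE lies 761 bp from the summit. The start in RefSeq, which calls the gene Atp5pb, lies 75 bp from it on the same build, with the summit upstream. For some members the start of the RefSeq gene lay beyond 1 kb of the summit. Among them were Cox5a (3551 bp against 400 bp in GENCODE), Atp5d (2819 against 60), Sdhaf2 (1279 against 346) and Atp5g3 (1026 against 112).

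Many members face another gene across a shared promoter, and this bears on whose peak is counted. A start of another protein-coding gene on the opposite strand lay within 1 kb for 34 members (36.6%), beside 11.7% of all genes. With such a neighbour, 13 of 34 members had a promoter peak (38.2%), beside 41.5% of all genes so arranged. Without one, 19 of 59 did (32.2%), beside 19.7% of all genes without one. In these counts the members' excess over all genes was seen among those with no opposite start and not among those with one. The Wilson intervals of the members, 21.69 to 44.89% without such a start and 23.9 to 54.96% with one, overlapped. The difference was not tested.

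At 11 of the 32 members the peak was also within 1 kb of another gene's start, on either strand, and at 6 of them the other start was the nearer. Among these were Haus1 beside Atp5a1 (34 bp against 104 bp), Wdr77 beside Atp5f1 (31 bp), Tssk6 beside Ndufa13 (427 bp), Rps28, a ribosomal protein gene, beside Ndufa7 (8 bp against 18 bp) and Lrrc41 beside Uqcrh (61 bp). Also shared, with the member's start the nearer, were the peaks of Ndufa11 (with Vmac), Ndufa4 (with Phf14) and Ndufs1 (with Eef1b2). The peak lists give no direction, so a peak between such genes cannot be given to either. With shared peaks left out, 21 members kept a promoter peak (22.6%), beside 17.8% of all genes.

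Of the 61 members without a promoter peak in the optimal set, many had a weaker or less reproducible one. The authors' pooled list held a peak within 1 kb for 39 of them (63.9%), beside 44.5% of all 16094 genes without one. Replicate 1 listed a peak at 44 (72.1%, beside 45.5%) and replicate 2 at 40 (65.6%, beside 41.9%). All 3 lists held a peak within 1 kb for 33 members. None did for 10: Cox5b, Cox6a2, Cox7b2, Cox8c, Ndufa8, Ndufab1, Ndufaf5, Ndufb6, Sdha and Uqcrc1.

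The choice of list moved individual members more than the total. Promoter peaks stood in the optimal set, the conservative set and both libraries alone for 25 members. The optimal set without the conservative one gave Cox5a, Ndufb4, Sdhaf2, Sdhb and Sdhc, all of which were found in replicate 1 alone and not in replicate 2 alone. The conservative set without the optimal one gave Atp5j, Cox4i1, Cox7a2, Ndufa10, Ndufaf8 and Ndufs4. Over all peaks on chromosomes 1 to 19, 7114 of 41796 conservative summits (17.0%) were not in the optimal set.

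Peaks near a member but away from its start were scarcer than over all genes. Each peak was assigned to the gene with the nearest protein-coding start within 100 kb, which is no measured link. An assigned peak was found for 44 of 93 members (47.3%), beside 48.3% of all genes. Members had 73 such peaks, 0.785 ± 1.12 per member (SD over 93 genes, median 0), beside 1.75 ± 3.43 per gene for all 20698 genes (median 0). Replicate 1 alone gave an assigned peak to 51 members (54.8%), beside 49.8% of all genes, and replicate 2 alone to 50 (53.8%), beside 49.0%. Peaks per gene were 0.871 for members and 1.75 for all genes in replicate 1 alone, and 0.936 and 1.74 in replicate 2 alone. The members' lower mean lay in the upper end of the distribution: 1 member (1.08%) had 4 peaks or more, beside 15.1% of all genes.

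**Figure D4:**
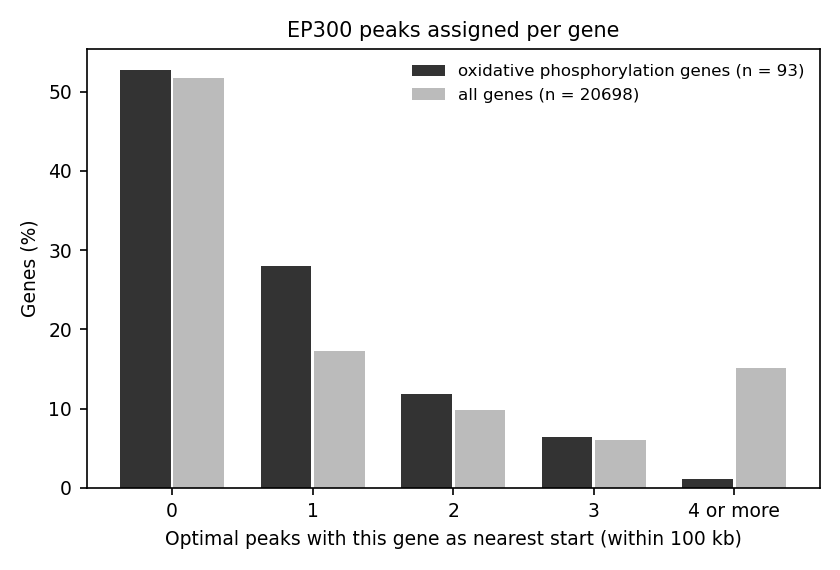
Bars give the percent of genes with 0, 1, 2, 3 or 4 and more optimal peaks whose nearest start is theirs, within 100 kb, for the 93 members (dark) and all 20698 genes (light). Genes with none make up 52.7% of members and 51.7% of all genes, and genes with 4 or more 1.08% and 15.1%.

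Of the 73 assigned peaks 29 were within 1 kb of the start (39.7%), beside 15.8% of the peaks assigned to all genes. A peak between 1 and 100 kb was found for 25 members (26.9%), beside 40.0% of all genes. Members lie in denser gene neighbourhoods: the stretch nearer to their starts than to any other, out to 100 kb, had a median of 23.6 kb, beside 44.9 kb for all genes. Per Mb of such stretches, peaks beyond 1 kb numbered 11.4 for members and 20.6 for all genes, so the members' count was lower per length as well. Of the 44 peaks beyond 1 kb, 18 lay inside a gene and 9 inside the member itself.

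Ndufaf6, a complex I assembly factor, was nearest to more optimal peaks than any other member, 7, with 4 in replicate 1 alone, as many as Atp5g2 there, and 5 in replicate 2 alone. Its strongest lay 13.3 kb upstream, with 83.8, against 46.9 in replicate 1 and 38.3 in replicate 2, and it had no promoter peak. Some of its 7 peaks overlapped, the peak of 83.8 with that of 23.6 and the peak of 71.2 with that of 14.6. The peak of 23.6 had no match in replicate 1 and that of 14.6 none in replicate 2. The strongest peak beyond 1 kb belonged to Ndufc2, an accessory subunit of the membrane arm. It lay 7.77 kb upstream, with 214 (rank 861), 121 in replicate 1 (rank 855) and 93.6 in replicate 2 (rank 941). This peak, whose sequence is given above, was stronger than every promoter peak of complex I, while the Ndufc2 promoter had none in the optimal set. Ndufa8, an accessory subunit with no listed peak at its promoter, had 3 assigned peaks, the strongest at 25.9 kb with 125, 81.0 in replicate 1 and 41.8 in replicate 2.

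Further named members had peaks away from the start. Sdhaf4 had a peak of 111 at 2.17 kb, with 65.9 in replicate 1 and 43.3 in replicate 2. Cox4i1 had 2 peaks (3 in replicate 1 alone and 1 in replicate 2 alone), and the 2 overlapped. The stronger had 91.5 at 28.4 kb, inside the body of another annotated gene, and the weaker 23.4. Uqcrfs1, the Rieske protein of complex III, had 89.2 at 3.95 kb, with 57.0 in replicate 1 and 33.8 in replicate 2. Cox7a2 had 2 peaks (2 in replicate 1 alone and 4 in replicate 2 alone), the stronger with 83.7 at 2.90 kb. Sdhb had, beside its weak promoter peak, a stronger one of 58.9 at 1.85 kb inside the gene, with 33.7 in replicate 1 and 23.1 in replicate 2. For these 5 genes the peak away from the start was thus stronger than any peak listed within 1 kb of it.

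Sequence matches were counted for 10 short motifs on both strands: NRF1 GCGCATGCG, YY1 AAGATGGCG, ETS CCGGAAGT, SP GGGCGG, ERR TCAAGGTCA, CREB TGACGTCA, NF-Y CCAAT, glucocorticoid receptor ACANNNTGT, TATA box TATAAA and AP-1 TGANTCA. Promoters of 300 bases from RefSeq (GRCm38.p6, 250 before to 50 after each start) were at hand for 75 members, with 80 promoters. Matches to NRF1 stood in 10 of the 80 (12.5%), beside 2.46% of 19167 promoters of all genes, and matches to YY1 in 8 (10%), beside 1.90%. ERR matches stood in 2 (2.50%), beside 0.339%. The other shares were nearer to those of all genes: ETS 6.25% beside 5.45%, SP 46.2% beside 48.3%, NF-Y 41.2% beside 37.5%, CREB 5.00% beside 2.36%, AP-1 8.75% beside 7.02% and TATA 11.2% beside 12.1%. No member promoter held the glucocorticoid receptor letters, beside 5.85% of all. The ratio of observed to expected CpG had a median of 0.828 in members' promoters and 0.601 in all, with GC contents of 58.5% and 57.3%.

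NRF1 and YY1 matches were no more frequent in members where EP300 peaked, and no difference was tested. NRF1 matches stood in 3 of 28 promoters of members with a promoter peak (10.7%) and 7 of 52 of members without (13.5%), and YY1 matches in 2 of 28 (7.14%) and 6 of 52 (11.5%). TATA matches stood in 6 of 28 (21.4%) and 3 of 52 (5.77%), whereas over all genes the order was the other way, 7.63% with a peak and 13.7% without. In the 100 bases around the summit itself, 1 of 32 members' peaks held an NRF1 match, that of Ndufa11 shown above, and 1 a YY1 match, at Ndufa9, beside 0.192% and 0.419% of 5726 promoter peaks of all genes. NF-Y letters stood in 6 of 32 (18.8%), beside 14.8%, SP letters in 4 (12.5%), beside 16.7%, and TATA letters in 3 (9.38%), beside 3.68%. AP-1 and glucocorticoid receptor letters stood in 0, beside 4.35% and 3.35%. Of the 44 members' peaks beyond 1 kb, 2 held glucocorticoid receptor letters (4.55%), that of Ndufc2 included, beside 7.64% of optimal peaks at no promoter. The Atp5b centre, with its 3 CCAAT matches, was 1 of 34 promoter peak centres (0.594%) with 3 or more. The median GC content of the centres was 48.0% for members and 53.0% for all promoter peaks. Such matches describe letters, not binding.

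Other genes of mitochondrial function gave a setting for these counts. Mitochondrial ribosomal protein genes, also nuclear and broadly expressed, had promoter peaks at 30 of 78 (38.5%) and 1.13 assigned peaks per gene, with Mrps18a (7 peaks, 6 in replicate 1 alone and 8 in replicate 2 alone) and Mrps10 (7, with 7 in replicate 1 alone and 4 in replicate 2 alone) highest. Other factors of the respiratory chain had 9 of 28 and 0.857 per gene, with 3 each at Cox10, a heme synthesis enzyme, Lyrm7, a chaperone of the Rieske protein, Cox20 (1 in replicate 2 alone) and Higd1a. Enzymes of the tricarboxylic acid cycle had 6 of 14 and 1.21 per gene, led by the succinyl-CoA ligase genes Suclg1 and Suclg2 with 3 each. Glycolysis genes had 5 of 14 and 1.64 per gene, with 10 at the hexokinase gene Hk2, and 4 each at the hexokinase gene Hk1 and at Gapdh. Leaving out a library changed these counts: Hk2 had 5 in replicate 1 alone and 6 in replicate 2 alone, and Hk1 had 3 and 2. Known regulators of mitochondrial genes had 4 of 15 and 1.80 per gene, with 6 at Ppargc1a, which encodes the coactivator PGC-1alpha (4 in replicate 1 alone and 9 in replicate 2 alone), and 5 at Gabpb1, a GABP subunit (3 in each library alone). Tfam and Polrmt, which transcribe mitochondrial DNA, had neither a promoter nor an assigned peak. The members' 34.4% thus stood within the range of these lists, 26.7% to 42.9%. Their 0.785 assigned peaks per gene lay below each of them, but the stretches nearest to a start differ in length. Per Mb of such stretches, peaks beyond 1 kb numbered 11.4 for members. The lists had 12.5 (tricarboxylic acid cycle), 12.6 (other respiratory chain factors), 13.7 (regulators), 21.8 (mitochondrial ribosomal proteins) and 22.4 (glycolysis).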

How the data were processed

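EP300 ChIP-seq peak lists of 2 libraries of newborn mouse lung were used. Per the labels, the authors worked on mm10. The aligner and peak caller are not given in the sources used here, and the control was not analysed here. Signal is the authors' deposited value per peak, its scaling is not stated, and lists were not put on 1 scale. The summit offset, another value deposited by the authors, gave summits. No value was recomputed. Depth and its precision could not be stated.

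Members and lists were chosen with earlier results of these data known. Starts were those of protein-coding transcripts in GENCODE vM21 (GRCm38), 52086 on chromosomes 1 to 19, with genes united by symbol. Summits within 1 kb of a start made promoter peaks, and the nearest start within 100 kb took each peak. Shares carry 95% Wilson intervals. Named genes were, per complex and for assembly factors, the 4 of strongest promoter signal and the 2 with most assigned peaks, plus isoform genes, and from other lists the 2 with most peaks. Others were named after their values were seen. Code (Python 3.11.15, numpy 2.4.6, pandas 2.3.3, scipy 1.17.1) was tested on simulated data, where 150 of 150 planted promoter peaks were found. Alternatives are given in the closing section. Some named items are not reported here. Sequence of 2 members on chromosome 18 is not printed.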

Additional observations from a re-analysis of the deposited data

How the results depend on the processing

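The share of members with a promoter peak lay above that of all genes in 12 of 12 alternatives (21.51% to 41.94% for members and 12.19% to 26.18% for all genes). With the stronger 50% of the optimal set it was 21.51%, beside 12.19%, and with peaks within 1 kb of another gene's start left out, an alternative chosen after seeing the data, it was 22.58%, beside 17.78%. Assigned peaks per member lay below the mean of all genes in 11 of 11 alternatives (0.3871 to 0.9677). They were 0.3871, beside 0.8753, with the stronger 50% of the optimal set, which holds fewer peaks by construction. With overlapping peaks merged, assigned peaks per member were 0.7204, beside 1.564 for all genes. The share with an assigned peak lay above that of all genes in 7 of 11 (33.33% to 54.84%), so no direction is given for it. Complex II had a promoter share of 0.0% in the conservative set and of 0.0% to 50% when either library was left out, and complex IV one of 12.5% to 37.5% when either library was left out. The cause was not tested. Over 19 named members with a promoter peak, the median percent of peaks in the list that were stronger was 18.67 in the optimal set. It was 14.75 in the conservative set (15 members), 15.06 without replicate 1 (15 members) and 14.7 without replicate 2 (17 members). Peaks outside the strongest 43988 of a library gave no value. The weak peaks of Cox5a, Sdhaf2, Sdhb and Sdhc were not in the conservative set, so these medians cover different members. Each named member kept there had a slightly higher percent, such as Atp5g3 (17.11 to 17.71) and Uqcrq (18.67 to 19.33). The GENCODE basic transcripts, also chosen after seeing the data, gave the same share of members, 34.41%. No paired analysis was possible because the libraries form 1 group. Depth limits which weak peaks were listed, and its size is unknown.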

Other observations

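The start of Ndufaf8, a complex I assembly factor, held the best-ranked peak of the authors' pooled list among all promoters without a peak in the optimal set. It was picked after its values were seen. Its signal was 106.9 in the pooled list (rank 5695), 49.7 in replicate 1 (rank 8801) and 57.8 in replicate 2 (rank 3522), and it was in the conservative set. The start is shared with Tepsin, on the opposite strand. Ndufs4, an accessory subunit of complex I, was the other member with a promoter peak in each library alone and in the conservative set but not in the optimal one, with 47.6 in the pooled list, 28.6 in replicate 1 and 16.2 in replicate 2.

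Among the tricarboxylic acid cycle genes, and again picked after values were seen, Mdh2, the mitochondrial malate dehydrogenase, had a promoter signal of 144.8.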
